A study of Mus musculus with 15 samples.

Results

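Kdm6a, listed under its older symbol Utx on the array, was low in 4 of the 15 mouse acute promyelocytic leukaemias of this series, and those 4 tumours were compared with the other 11. The classes were chosen by the measured Kdm6a signal: a tumour was placed in the low class when its value, the median log2 intensity over the 34 probesets annotated to that gene alone, lay under 6.2. The 4 tumours so chosen were tumor_9500, tumor_26, tumor_9495 and tumor_9520. All 15 samples were total RNA from spleen, the mice were of the strain Bl/6 Taconic, and the disease was acute promyelocytic leukaemia (APL), in which leukaemic cells are held at the promyelocyte stage of neutrophil development, and each was hybridised to 1 Affymetrix Mouse Exon 1.0 ST array. Transgene, treatment, age and sex of the mice are not given in the sources used here. The labels state the same for both classes, and other unlabelled traits may differ between them. Whether the tumours came from separate animals is likewise not given, so p-values measure only the spread between these arrays, which may in part be technical. Precision is limited by the 15 arrays.

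Kdm6a encodes an X-linked enzyme that removes methyl groups from lysine 27 of histone H3, a mark of silenced genes placed by Polycomb repressive complex 2. The protein works within COMPASS-like complexes built around the methyltransferases Kmt2c and Kmt2d, which mark enhancers, and loss of the gene recurs in human and mouse blood cancers. Its close relatives are Kdm6b, an active demethylase, and Uty, the Y-linked copy.

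The labelled tissue carried its defining genes in both classes. Mpo, which encodes the myeloperoxidase of promyelocyte granules, lay at 13.08 ± 0.08 (SD, n = 4) in the Kdm6a-low tumours and at 12.85 ± 0.29 (SD, n = 11) in the others. Ctsg, the granule protease cathepsin G, lay at 12.26 ± 0.06 and 12.18 ± 0.28 in the same order, and Cd79a, part of the B cell receptor of normal spleen lymphocytes, at 8.32 ± 0.13 and 8.21 ± 0.71. The median deposited intensity per array was 122 to 125 in the low class and 108 to 129 in the others. The arrays of tumor_9509 and tumor_9514, both in the class of 11, stood apart with medians of 108, so results are also given without them, as 4 against 9 tumours. Across genes the 4 low tumours correlated with each other at r = 0.965 to 0.978, and with the other 9 at 0.954 to 0.977, so these ranges overlapped.

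The Kdm6a signal defines the classes and is therefore described without a test. Among the low tumours, tumor_9500 had a gene value of 4.94, tumor_26 of 5.25, tumor_9495 of 5.28 and tumor_9520 of 5.42. In the other 11 tumours the lowest value was 6.92, the median 7.17 and the highest 8.22. The tumours next to the threshold were thus tumor_9520 at 5.42 inside it and tumor_9509 at 6.92 outside it, with none between. Class means were 5.22 ± 0.20 (SD, n = 4) and 7.32 ± 0.42 (SD, n = 11).

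The low signal extended over nearly the whole probeset series of the gene. In 28 of the 34 probesets every low tumour lay under every other tumour. The detection limit was set at 6.41, the 40th percentile of the gene means over the 15 tumours. Signals under it may be background, so for Kdm6a levels are given and no fold or size of difference. The class mean lay above the limit in 28 probesets in the other tumours and in 4 in the low tumours. Probeset 5209322, for example, read 6.08 to 8.28 in the 11 tumours and 4.95 or less in the 4, while probeset 5150117 overlapped, at 5.93 to 6.79 and 5.47 to 6.25. Under the limit lay 30 of 34 probesets in tumor_9500, tumor_26 and tumor_9495 and 31 in tumor_9520, against 0 to 12 in the other tumours.

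**Figure D1:**
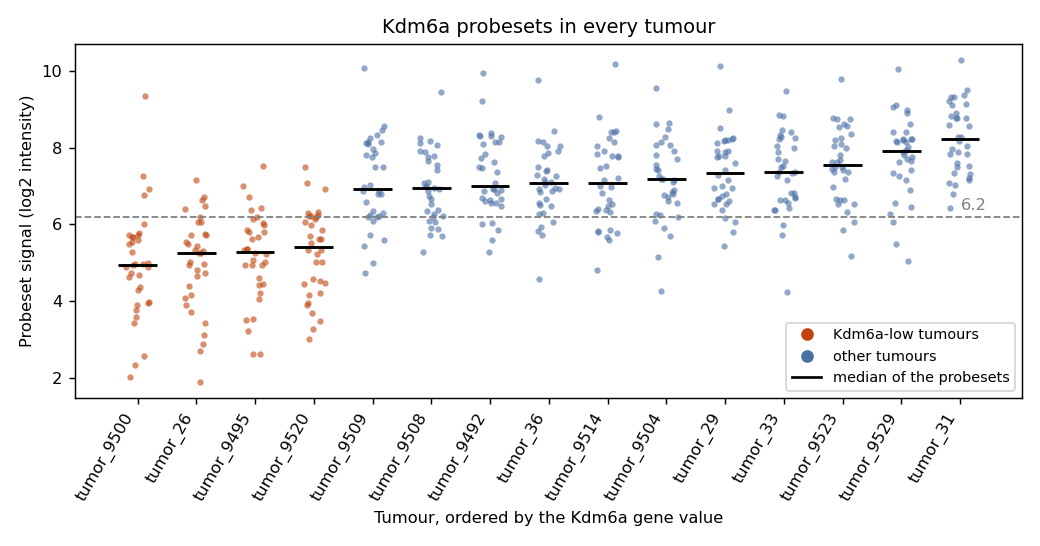
Log2 intensity of the 34 Kdm6a probesets (points) and their median (bars) in each tumour, ordered by that median, with the class threshold of 6.2 as a dashed line. The 4 Kdm6a-low tumours have medians of 4.94 to 5.42, the other 11 of 6.92 to 8.22, and 1 probeset of tumor_9500 stays at 9.33.

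The 4 tumours were not alike in each probeset. Probeset 4607037 read 9.33 in tumor_9500 and 6.19 to 6.93 in the other 3 low tumours, against 7.82 to 9.32 in the other tumours. In this 1 probeset tumor_9500 was at the top of all tumours, although it had the lowest gene value. Probeset 5286226 read 6.91 in tumor_9500 and 6.47 in tumor_26 but 5.35 in tumor_9495 and 5.50 in tumor_9520, while probeset 4762845 was highest in tumor_9495, at 7.51 against 6.01 to 6.72 in the other 3 low tumours. Probeset 4947252 lay at 6.32 in tumor_9520 and at 3.42 to 4.66 in the other low tumours. The positions of these probesets within the gene are not used here.

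The promoter of Kdm6a is shown because it drives the transcript whose signal sorted the tumours. The 250 bases before the transcript start in the RefSeq promoter table lie at chrX:18162325-18162574 (GRCm38.p6, plus strand). The capitals mark the palindromic E-box CACGTG, the sequence bound by many basic helix-loop-helix factors.

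Kdm6a promoter: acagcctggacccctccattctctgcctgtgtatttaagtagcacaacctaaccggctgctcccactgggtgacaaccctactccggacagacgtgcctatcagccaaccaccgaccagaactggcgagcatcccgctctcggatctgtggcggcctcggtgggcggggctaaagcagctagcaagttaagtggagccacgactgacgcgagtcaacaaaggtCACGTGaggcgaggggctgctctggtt

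The motif reads the same on both strands, occurs 1 time here and is present in 6.02% of the 32851 promoter windows of this length in the table. The window holds 15 CpG dinucleotides, against a median of 6 over all windows, and 59.6% G and C, against 52.4%. No value of the arrays is assigned to this stretch here, so nothing about its state in the tumours follows.

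Among detected genes flanking Kdm6a on the X chromosome, no low signal like that of Kdm6a was measured. The 8 nearest measured genes on each side were examined; 6 of these 16 were detected, and none of the 6 passed an unadjusted p of 0.05 in limma. Before Kdm6a, Fundc1, a mitochondrial outer membrane protein gene, read 7.15 in tumor_9495, 7.09 in tumor_9500, 6.74 in tumor_26 and 6.70 in tumor_9520, within or just under the range of 6.85 to 7.71 in the other tumours. Its mean difference, low minus other, was -0.25 ± 0.18 (SE). After it, Rp2, a GTPase-activating protein gene, stood at 8.04 to 8.95 in the low tumours and 7.71 to 9.35 in the others, and Jade3, a histone acetylation cofactor gene, at 6.68 to 7.02 and 6.25 to 7.20. Differences of the 6 detected neighbours, which also include Maoa, Ndufb11 and Rbm10, ran from -0.25 to 0.20. Of the 10 dim neighbours, Dipk2b, the next measured gene after Kdm6a, had the widest difference, followed by Cypt1. Dipk2b read 5.62 in tumor_9495, 6.46 in tumor_9500, 5.78 in tumor_26 and 5.97 in tumor_9520, and 4.52 to 5.72 in the others, mostly under the detection limit. Cypt1 read 4.46 to 5.16 in the low tumours and 3.90 to 5.29 in the others, all under that limit. The dim neighbours were not tested.

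Over the X chromosome as a whole the class medians were close. The median over 256 detected X-linked genes, each taken as a deviation from its 15-tumour median and then from the median deviation of the tumour, was 0.00 ± 0.04 (SD, n = 4) in the low tumours and -0.01 ± 0.05 (SD, n = 11) in the others. The difference of 0.0088 had an exact two-sided permutation p of 0.758 over 1365 splits, and its sign changed with the processing. Of 9 genes known to escape X inactivation or listed with them, 7 were tested, none passed an unadjusted p of 0.05, and their median difference was 0.00. Kdm5c, another X-linked histone demethylase, differed by 0.14 ± 0.15 (SE), and by 0.04 without tumor_9509 and tumor_9514. Both Y-linked genes measured were dim on average but not in every tumour. Kdm5d read 7.09 in tumor_9500 and 7.09 in tumor_26 but 4.71 in tumor_9495 and 4.97 in tumor_9520, and 4.67 to 6.82 in the other tumours. Eif2s3y read 9.44, 5.10, 3.33 and 2.93 in the same order, and up to 8.95 in the others. Thus tumor_9500 lay above the detection limit in both genes, tumor_26 in Kdm5d alone, and tumor_9495 and tumor_9520 in neither. Xist, Uty, Kdm6b, Kmt2c and Kmt2d are not analysed here, as no probeset carried any of these symbols alone.

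No gene tested passed the threshold between the classes. limma was run over 9461 detected genes with at least 3 probesets, with Kdm6a itself left out, and 0 (0% higher and 0% lower) had a Benjamini-Hochberg adjusted p under 0.05. The smallest adjusted p was 0.812, for Gpt, and the other adjusted p-values that belong to genes named below were 0.998. At an unadjusted p under 0.05, 288 genes were higher in the low tumours (3.04%) and 68 lower (0.719%). Together these made 3.76% of the genes tested. Without tumor_26 the number of higher genes was 156. The median of all 9461 differences was 0.06, and 64.1% of differences were positive; the 80.9% share of higher genes among those 356 was 71.0% with each array centred on its median and 56.7% after quantile normalization. Without tumor_9509 and tumor_9514, again 0 genes passed, the median difference was 0.01, and 230 genes were higher (2.43%) and 111 lower (1.17%) before adjustment, 3.6% in all, of which 249 genes were shared with the 356. The 95% interval of a difference reached a median of 0.35 log2 units to either side, from 0.24 at the 10th to 0.57 at the 90th percentile of genes. In data simulated with the spread of these genes a shift of 1 log2 unit was called in 74% of 100 genes given it, and a shift of 2 in 99% of another 100. Among the unshifted genes 6 were called. Both sets were shifted in the same simulated data, which eases the Benjamini-Hochberg threshold. Each gene was also drawn on its own, so the simulated data lack variation shared between genes, as in tumor_9509 and tumor_9514. These shares and the calls among unshifted genes therefore do not describe the test on the measured data. Nor do they give the power for a gene that differs alone. Of the 106 tested genes examined singly, 40 had an unadjusted p under 0.05. Of these, 35 kept it without tumor_9509 and tumor_9514, and 18 kept it in every setting tried. Most of the 106 were named for their differences in these same data, so these counts are raised by that choice and give no support. In 26 of the 106 the difference was over 1.5 times smaller, or of the opposite sign and smaller, without those arrays. A missed threshold does not show that a gene's level was equal in both classes.

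In 17 genes (0.18% of those tested) every Kdm6a-low tumour lay above every other tumour, and in 0 genes (0%) below. Gpt, which encodes alanine aminotransferase and lies on chromosome 15, had the smallest unadjusted p. It read 7.69 in tumor_9495, 7.70 in tumor_26, 7.66 in tumor_9520 and 7.03 in tumor_9500, against a lowest value of 6.25, a median of 6.83 and a highest of 6.96 in the others. The class means differed by 0.74 ± 0.14 (SE; unadjusted p = 8.6e-05), and tumor_9500 lay close to the other class. With the mean over probesets in place of the median the difference was 0.27 (unadjusted p = 0.0634 in limma). With only probesets above the 25th percentile it was 0.58 (unadjusted p = 0.0656 in limma). Gbp6, an interferon-inducible GTPase gene on chromosome 5, stood at 7.03 to 7.32 in the low tumours and at 5.84 to 6.95 in the others, a difference of 0.68 ± 0.21 (SE) that was 0.34 with the mean over probesets (unadjusted p = 0.106 in limma). Abhd17c, a depalmitoylating enzyme gene, lay at 9.35 to 9.51 against 8.57 to 9.21, and Lancl2 at 8.62 to 8.87 against 7.51 to 8.60.

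Of the 17, 9 were genes of chromosome 19, which held 366 of the 9461 genes tested (3.87%), and 8 of these are among the 12 with the largest differences. Coro1b, a coronin that organises actin, lay at 9.37 in tumor_9495, 9.32 in tumor_9500, 9.80 in tumor_26 and 9.55 in tumor_9520, against 7.30 to 9.19 in the others. Its difference was 0.78 ± 0.26 (SE). Kat5, the catalytic subunit of the TIP60 histone acetyltransferase, stood at 8.80, 8.67, 8.66 and 8.56 in the same order, above a median of 7.98 and a highest value of 8.47 in the others. Rela, the NF-kappaB subunit p65, stood at 8.46, 8.66, 8.57 and 8.50, above a median of 7.89 and a highest value of 8.41. Minpp1, an inositol polyphosphate phosphatase gene, differed by 0.58 ± 0.14 (SE; 7.67 to 7.96 against 6.87 to 7.66). Mta2, a subunit of the NuRD deacetylase complex, lay at 9.03 to 9.26 in the low tumours and 7.20 to 8.95 in the others. For Pprc1, a coactivator of mitochondrial biogenesis, the ranges were 7.54 to 7.85 and 6.36 to 7.50. Sf3b2, a core splicing factor gene, lay at 8.89 to 9.10 against 7.81 to 8.89, and Rbm4b, which encodes an RNA-binding protein, at 9.26 to 9.46 against 8.09 to 9.26; in both the classes separated by less than the rounding of these values. None of these genes passed adjustment. Without tumor_9509 and tumor_9514, the differences were 0.58 for Coro1b, 0.57 for Kat5, 0.45 for Rela and 0.43 for Mta2, and 20 genes (0.211%) lay above and 2 genes (0.0211%), Nup37 and Rundc3a, below every other tumour; this pair is named after its values were seen.

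**Figure D2:**
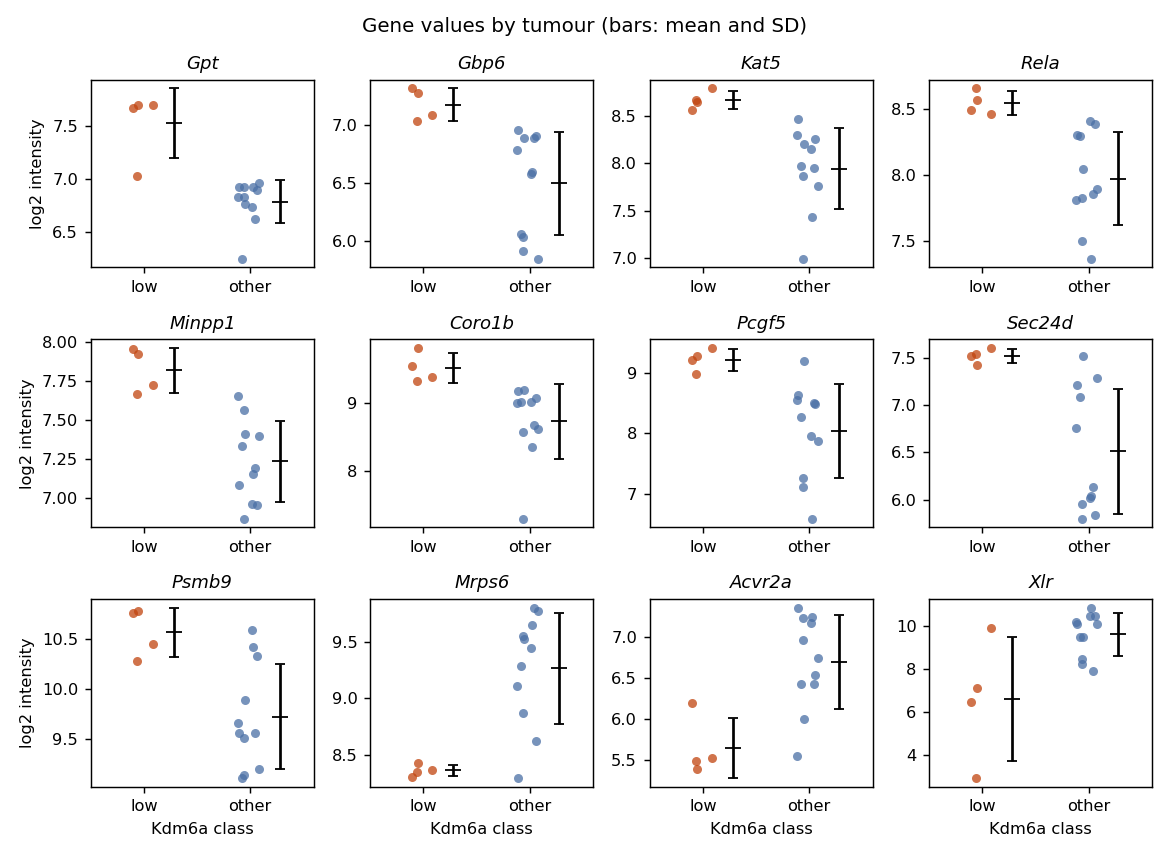
Gene values (log2 intensity) in each Kdm6a-low tumour (orange, n = 4) and each other tumour (blue, n = 11), with bars for the mean and SD of each class. The classes do not overlap for Gpt, Gbp6, Kat5, Rela, Minpp1 and Coro1b, and they overlap for Pcgf5, Sec24d, Psmb9, Mrps6, Acvr2a and Xlr.

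Chromosome 19 had its highest values in the 4 Kdm6a-low tumours. This chromosome was singled out after its values were seen; all 20 chromosomes were computed alike. Its median over 366 genes, in the same relative units as for the X chromosome, was 0.12 in tumor_9495, 0.13 in tumor_9500, 0.14 in tumor_26 and 0.12 in tumor_9520. The other 11 tumours fell into separate ranges. Tumours tumor_31, tumor_9523, tumor_9509, tumor_9492 and tumor_9514 lay between -0.28 and -0.19, and the remaining 6 between -0.01 and 0.09. The 4 low tumours were therefore the 4 highest of 15, and none of them was among the 5 with clearly negative values. The class difference was 0.22, with an exact two-sided permutation p of 0.00659 over 1365 splits and an adjusted p of 0.132 over 20 chromosomes, so it did not pass the correction. It was 0.17 without tumor_9509 and tumor_9514 (p = 0.0224, exact permutation over 715 splits, adjusted p = 0.448).

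**Figure D3:**
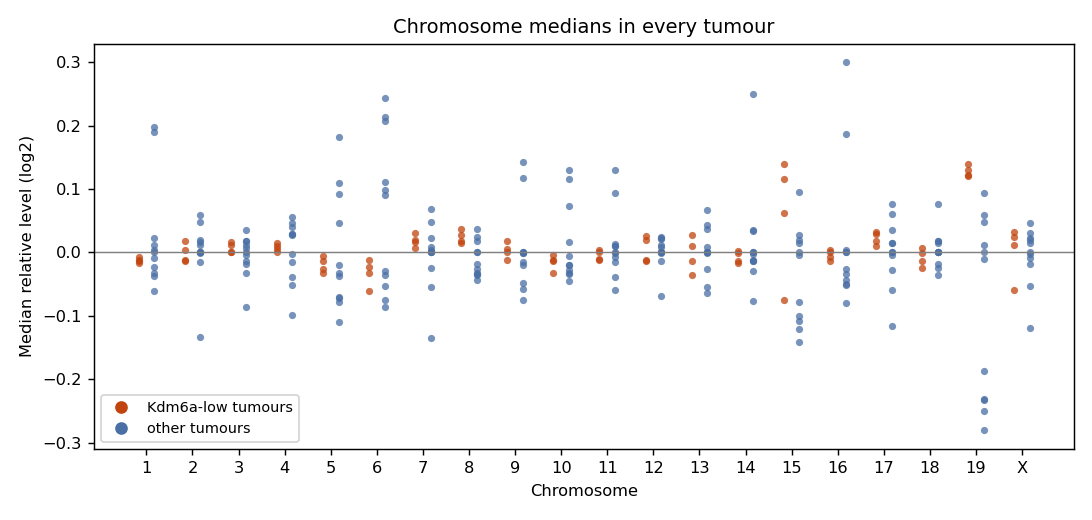
Median level of each chromosome's detected genes, as a deviation from each gene's 15-tumour median and from the median deviation of the tumour (log2), in the 4 Kdm6a-low tumours (orange) and the other 11 (blue). On chromosome 19 the low tumours sit at 0.12 to 0.14, above the other tumours, 5 of which sit at -0.28 to -0.19.

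The genes of chromosome 19 made up 27.8% of the higher genes, 80 of 288 at an unadjusted p under 0.05, with 0 lower. The 80 were 21.9% of the 366 genes tested there, of which 328 (89.6%) had a positive difference. Elsewhere the share of positive differences ran from 37.8% on chromosome 6 to 80.2% on chromosome 15. The median difference was 0.29 on chromosome 19 against 0.05 on the other chromosomes. Over the 9095 genes elsewhere, 208 (2.29%) were higher and 68 lower. When the chromosome was divided into 10 parts by gene order, the relative difference between classes was 0.17 to 0.25 in each part. In 7 of these 10 parts at least 1 of the other tumours reached into the range of the low ones or above it. The counts and differences above include tumor_9509 and tumor_9514, whose chromosome 19 medians were both -0.23. After chromosome 19, the widest differences were on chromosome 15 (0.10, exact permutation p = 0.0659, adjusted p = 0.440) and chromosome 6 (-0.09, exact permutation p = 0.165, adjusted p = 0.824). On chromosome 15 tumor_9500 lay at -0.08 while tumor_9495, tumor_26 and tumor_9520 lay at 0.12, 0.14 and 0.06, so the low class was not uniform there.

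**Figure D4:**
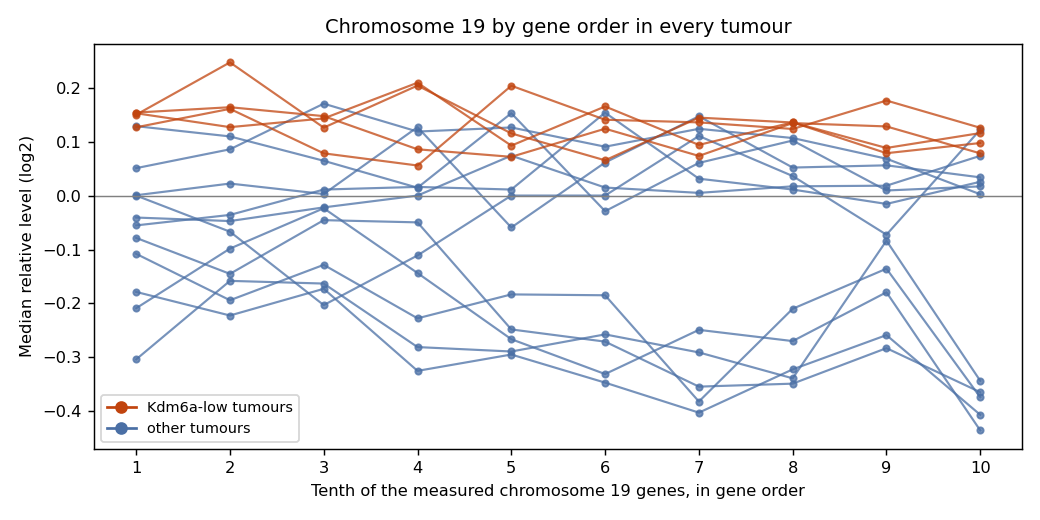
Median relative level (log2) of chromosome 19 genes in 10 consecutive parts of the gene order, 1 line per tumour, orange for the 4 Kdm6a-low tumours and blue for the other 11. The orange lines stay between 0.06 and 0.25 in all parts, and 5 of the blue lines lie below 0 throughout.

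Genes of histone H3 lysine 27 methylation and of the complexes around Kdm6a showed small differences. Of 9 COMPASS partners 7 were tested; none passed an unadjusted p of 0.05, and their median difference was 0.01. Pagr1a, a small subunit that joins Paxip1 in these complexes, differed most, by 0.32 ± 0.18 (SE), and Ncoa6, a nuclear receptor coactivator, by 0.20 ± 0.23, or 0.01 without tumor_9509 and tumor_9514. All 11 genes of Polycomb repressive complex 2 were tested with 0 below that p and a median of -0.05. Ezh2, its catalytic subunit, read 9.08 in tumor_9495, 8.73 in tumor_9500, 9.42 in tumor_26 and 8.65 in tumor_9520, against 8.67 to 9.51 in the others. Its difference of -0.19 ± 0.17 (SE) lay within the spread, and was -0.08 with the mean over probesets. Phf19, an accessory subunit, differed by 0.33 ± 0.18, or 0.20 without tumor_9509 and tumor_9514.

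Polycomb repressive complex 1, which ubiquitinates histone H2A, had 4 of its 16 tested genes under an unadjusted p of 0.05, against 3.76% of all genes, and 3 of 16 without tumor_9509 and tumor_9514, against 3.6%; none passed adjustment. Ring1 and Bmi1 are named after their values were seen, as members under that p. Pcgf5, a subunit of variant complexes, lay at 9.42 in tumor_9495, 8.98 in tumor_9500, 9.28 in tumor_26 and 9.22 in tumor_9520, against a lowest value of 6.59, a median of 8.28 and a highest of 9.21. Only 1 of the other tumours reached the low class. The difference was 1.18 ± 0.36 (SE; unadjusted p = 0.0043), and Pcgf5 lies on chromosome 19. Pcgf2 (0.39 ± 0.18) and Ring1, the E3 ligase (0.34 ± 0.14), also had positive differences. The unadjusted p of Pcgf2, 0.0453, was 0.0823 without tumor_9509 and tumor_9514, and the difference of Ring1 was 0.15 with the mean over probesets. Bmi1, the subunit of canonical complexes needed for stem cell renewal, differed by -0.37 ± 0.14 (SE), with 7.51 to 8.11 against 7.77 to 8.38; its unadjusted p of 0.0158 was 0.0719 without tumor_9500 and 0.0726 without tumor_9520. The list's median was 0.10, or 0.04 without tumor_9509 and tumor_9514. Of the 16 differences 12 were positive, but most differences over all genes tested were positive too.

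Other chromatin and transcription factor lists held few differences. Of 14 other histone demethylases tested none passed an unadjusted p of 0.05 (median 0.08); Kdm2a, on chromosome 19, differed by 0.44 ± 0.22 (SE), or 0.26 without tumor_9509 and tumor_9514, and Riox1 by -0.38 ± 0.20, or -0.21 without tumor_9500. The 12 chromatin remodelling genes of the SWI/SNF complex had the highest list median, 0.23, with 0 passing, but 0.02 without tumor_9509 and tumor_9514; Smarca2, again on chromosome 19, differed by 0.33 ± 0.16 and Smarcd2 by 0.37 ± 0.31, the latter by 0.09 without those arrays. Of 30 Hox and cofactor genes 25 were measured but only 7 were detected, with a median of -0.06 and a largest difference of 0.13 ± 0.18, in Pbx3, or 0.07 without those arrays. The 14 ETS factor genes had a median of 0.09, or -0.0008 without those arrays, and 0 passing. Ets2 led them at 0.33 ± 0.29, or 0.12 without those arrays. The 9 GATA factor and partner genes had a median of 0.12, or 0.02 without those arrays. Among them the cofactor Ldb1, on chromosome 19, had an unadjusted p of 0.0326 with a difference of 0.37 ± 0.16 (p = 0.1 in limma without tumor_26). Runx1 differed by 0.40 ± 0.30. The 7 retinoid receptor and response genes had a median of 0.16; Rara, the receptor joined to Pml in the fusion of human promyelocytic leukaemia, read 8.71 in tumor_9500 but 7.57 to 7.92 in the other low tumours, and differed by 0.38 ± 0.25, or 0.15 without tumor_9500.

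Growth and signalling lists likewise stayed near the median of all genes. Medians were 0.07 for 15 S phase genes, 0.10 for 16 genes of G2 and mitosis, 0.14 for 12 genes of Myc and ribosome biogenesis and 0.02 for 14 genes of the Rb pathway and its inhibitors, with none under an unadjusted p of 0.05. In the same order they were -0.05, 0.03, -0.01 and -0.01 without tumor_9509 and tumor_9514. Plk1, a mitotic kinase, differed by 0.50 ± 0.26 (SE), Kif11, a spindle motor on chromosome 19, by 0.42 ± 0.23, and Gins2, a replication helicase subunit, by 0.34 ± 0.18. Without tumor_9509 and tumor_9514 the difference was 0.32 for Plk1 and 0.27 for Kif11. Myc lay at 10.99 to 11.58 in the low tumours and 9.15 to 11.77 in the others, a difference of 0.52 ± 0.35 that was 0.22 without those arrays. Rbms2, of the Rb list, differed by 0.28 ± 0.23, or 0.08 without tumor_9520. The 20 myeloid leukaemia genes tested had a median of 0.07, and Idh2, a mitochondrial dehydrogenase, differed by 0.49 ± 0.29, or 0.24 without tumor_9509 and tumor_9514.

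Jak1, a kinase that signals from cytokine receptors, read 8.97 in tumor_9495, 9.20 in tumor_9500, 8.95 in tumor_26 and 8.85 in tumor_9520, against 8.42 to 9.41. Its difference was 0.05 ± 0.16 (SE) and -0.04 without tumor_9509 and tumor_9514. The 7 JAK-STAT targets had a median of 0.03. Cish, a feedback inhibitor, differed by 0.43 ± 0.20, with an unadjusted p of 0.0444 that was 0.0779 without tumor_9509 and tumor_9514. Pim1, a survival kinase, read 8.99 in tumor_9500 and 7.29 in tumor_9495, a wide range within the class. Of 15 interferon response genes only 3 were detected (median 0.04), among them Bst2 at 0.42 ± 0.31. The 9 genes that handle cytarabine had a median of 0.14, or 0.009 without tumor_9509 and tumor_9514. Slc29a1, the nucleoside transporter that brings this drug into cells, differed by 0.33 ± 0.20, or 0.15 with the mean over probesets. Samhd1, which breaks down the drug's active form, differed by 0.36 ± 0.25, or 0.19 without tumor_9500.

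**Figure D5:**
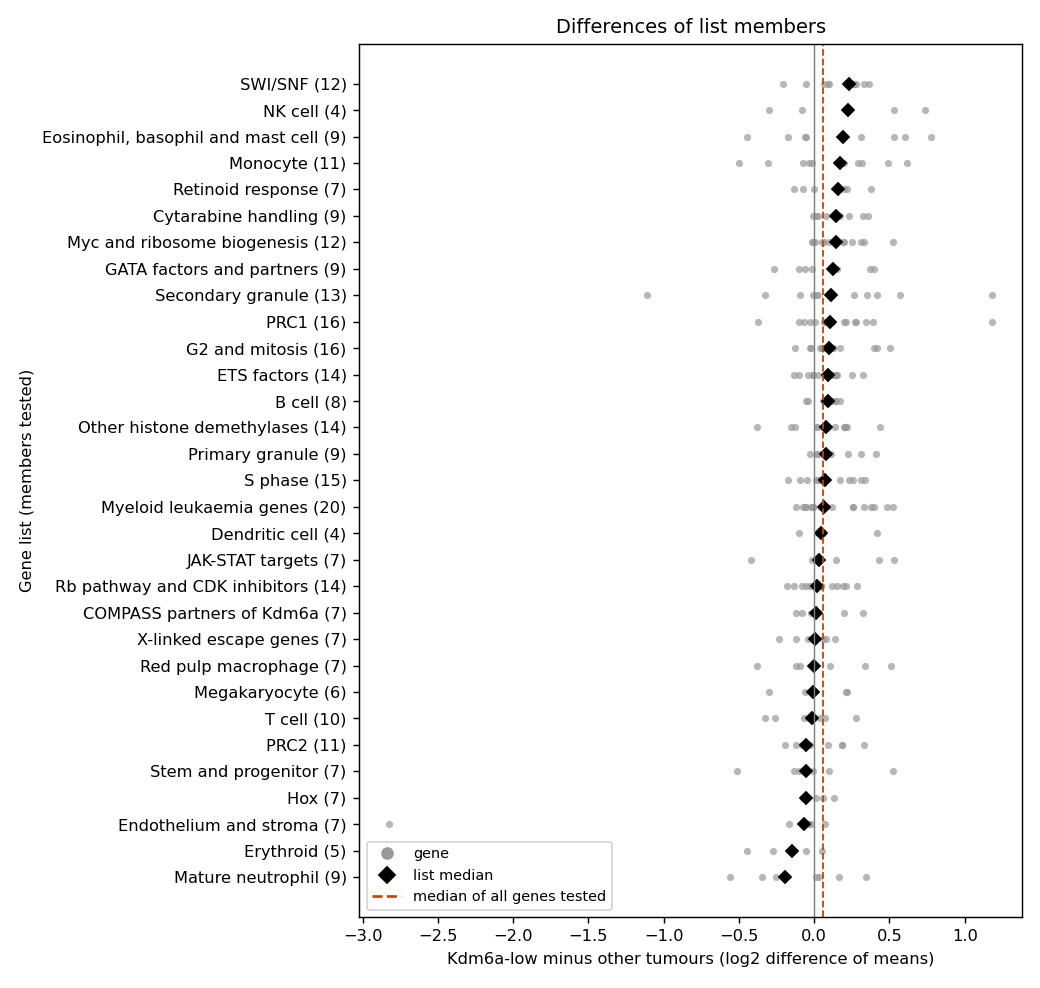
Difference of class means (Kdm6a-low minus other, log2) for each tested gene (grey) in the 31 lists with at least 4 tested members, with the list median (black diamond), and the median of all genes tested as a dashed line at 0.06. List medians run from -0.19 for mature neutrophil genes to 0.23 for SWI/SNF genes. The genes farthest out are Postn on the negative side, Pcgf5 at 1.18, Cybb at 1.18 and Mmp8 at -1.11. No size is given for Postn, whose mean in the Kdm6a-low tumours lay under the detection limit.

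Primary granule genes were close among the Kdm6a-low tumours, while some genes of later neutrophil stages had wide ranges there. In spleen RNA, fewer cells of a type and less RNA per cell cannot be told apart. Of 9 primary granule genes 8 had positive differences, as did most of all genes tested. The list's median was 0.07, with 0 passing. Its mean deviation ran from 0.03 to 0.15 in the low class and from -0.35 to 0.26 in the others. Ms4a3, on chromosome 19, differed by 0.41 ± 0.24 (SE) and Prtn3, the granule protease proteinase 3, by 0.31 ± 0.20. The 13 secondary granule genes had a median of 0.11, or 0.22 without tumor_9509 and tumor_9514. Cybb, the X-linked catalytic subunit of the phagocyte oxidase, lay at 9.79 in tumor_9495, 9.50 in tumor_9500, 9.95 in tumor_26 and 8.90 in tumor_9520, against 5.70 to 10.71, a difference of 1.18 ± 0.61. Mmp8, the neutrophil collagenase, read 10.63 in tumor_9500 but 6.71 in tumor_26, 7.01 in tumor_9495 and 7.62 in tumor_9520. The 9 mature neutrophil genes had the lowest list median, -0.19, with 0 passing, but -0.03 without tumor_9509 and tumor_9514; their mean deviation from the 15-tumour mean ran from -0.67 to 1.25 within the low class and from -1.14 to 1.11 in the others. Fpr2, a formyl peptide receptor, and Retnlg were both highest of the low class in tumor_9500, at 9.86 and 12.44.

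None of the progenitor genes tested passed an unadjusted p of 0.05 in limma. The 7 stem and progenitor genes tested had a median of -0.05. Hlf, a stem cell transcription factor gene, lay at 6.02 to 6.43 against 5.73 to 7.53 (unadjusted p = 0.0546 in limma). Its mean in the low tumours lay under the detection limit, so no size of difference is given. Cd93 spread from 7.36 to 9.48 within the low class.

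Markers of other blood and spleen cells included no list that separated the classes. List medians were 0.17 for 11 monocyte genes, 0.00 for 7 red pulp macrophage genes, 0.09 for 8 B cell genes, -0.01 for 10 T cell genes, 0.22 for 4 NK cell genes and 0.04 for 4 dendritic cell genes. They were -0.15 for 5 erythroid genes, -0.01 for 6 megakaryocyte genes, 0.19 for 9 genes of eosinophils, basophils and mast cells and -0.07 for 7 endothelial and stromal genes. In each of these 10 lists the mean deviation of the low tumours overlapped that of the others. Slc4a1, the red cell anion exchanger, differed by -0.44 ± 0.20 (SE; unadjusted p = 0.0421, or 0.0838 without tumor_9509 and tumor_9514). It read 6.28 in tumor_9500 and 6.66 in tumor_9520 but 7.17 in tumor_9495 and 7.47 in tumor_26, so the class was split, and without tumor_9500 the difference was -0.24. The lysosomal macrophage gene Cd68 differed by 0.62 ± 0.35 and the monocyte and platelet factor gene F13a1 by -0.50 ± 0.37, or -0.18 without tumor_9500. The part of cell composition in the gene differences was not tested.

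Some genes had wide mean differences but overlapping classes; they were picked after their values were seen, apart from Postn, which is on the stromal list. Postn, which encodes the matrix protein periostin, lay at 7.03 in tumor_9495, 4.99 in tumor_9500, 6.10 in tumor_26 and 4.32 in tumor_9520. The median in the others was 9.16, with 3 of those 11 within the low range. The Postn signals of tumor_9500, tumor_26 and tumor_9520 lay under the detection limit, so no size of difference is given. Gal, a neuropeptide gene on chromosome 19, lay at 8.87 to 10.51 in the low class. Its median was 5.71 in the others, 3 of which reached that range: tumor_9504 at 10.04, tumor_36 at 10.47 and tumor_9508 at 9.42. The same 3 were those within the low range of Postn. Penk and Serpina3g differed by 2.41 ± 0.81 and 2.07 ± 0.85 (SE). Serpina3g reached the low range in the same 3 other tumours, and Penk in these and in tumor_33. The pattern of these genes was thus shared by tumours outside the low class, and their p-values are not separate results. The unadjusted p was 0.0174 for Postn, 0.0145 for Gal, 0.0085 for Penk and 0.0258 for Serpina3g. It was 0.0552 for Serpina3g without tumor_9509 and tumor_9514, and 0.0658 for Postn and 0.0516 for Gal without tumor_9520.

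Mrps6, Sec24d, Psmb9 and Acvr2a were likewise picked after their values were seen. Mrps6, a mitochondrial ribosome gene, read 8.37 in tumor_9495, 8.36 in tumor_9500, 8.43 in tumor_26 and 8.31 in tumor_9520, against a median of 9.45 in the others, of which 1 was at 8.30 (difference -0.90 ± 0.23 SE, unadjusted p = 0.0012). With the mean over probesets it was -0.57. Acvr2a, an activin receptor gene, lay at 5.38 to 6.19, all under the detection limit, so no size of difference is given, and at 5.55 to 7.36 with a median of 6.74 in the others. Sec24d, a coat protein of vesicles leaving the endoplasmic reticulum, lay at 7.43 to 7.61 with a median of 6.14 in the others (difference 1.01 ± 0.31), 1 of which reached 7.52. Psmb9, an immunoproteasome subunit, lay at 10.28 to 10.78 against a median of 9.56 (difference 0.84 ± 0.25).

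Xlr, an X-linked lymphocyte gene of a multigene family whose probes may read relatives, was also picked after its values were seen and had the most negative difference of the genes named here, -3.01 ± 0.84 (SE; unadjusted p = 0.0022). It rested on single tumours: Xlr read 2.92 in tumor_9500, 6.45 in tumor_9520, 7.10 in tumor_26 and 9.93 in tumor_9495, against 7.92 to 10.85 in the others. With tumor_9500 left out the difference was -1.79.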

How the data were processed

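The deposited values are linear intensities per probeset of 15 exon arrays, made by the authors with RMA, per the submitters' processing notes, which also name the mm9 build; background correction and probe filters are not given in the sources used here. Of 229581 probesets, 208397 carry 1 gene symbol and were used, 3965 carry several and 17219 none; the 16299 symbols were updated through RefSeq's GRCm38.p6 gene table (14132 current, 2099 renamed, 68 kept), which also gave chromosome and gene order. A gene value is the median log2 intensity over its probesets. Genes with at least 3 probesets and a mean above the 40th percentile (6.41) were tested with limma 3.58.1 (lmFit, eBayes; R 4.3.3) and Benjamini-Hochberg adjustment at 0.05. Chromosome medians were compared by exact permutation over tumours in Python 3.11.15 with numpy 2.4.6. The test was checked on simulated data. The members, lists and rules were chosen with earlier results of these data known. Named were Kdm6a, its neighbours and stated relatives, in each direction the 12 genes with the largest differences that passed or, failing that, did not overlap between classes, and the 2 members with the largest difference in each list; others are marked in the text as picked after their values were seen. Alternatives were gene value, filters, normalization, variance model, tumour number (2 or 4 digits), and leaving out tumours.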

Additional observations from a re-analysis of the deposited data

Results flagged for a closer look

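Of 119 genes examined, 8 (6.72%) had 1 of the 4 Kdm6a-low tumours far from the other 3 by Dixon's criterion; chance gives this in about 1 in 20 groups, so the count is near that rate. In tumor_9495 Slc9a7 read 5.98 (5.53 to 5.58 in the other 3 low tumours) and Fibp, which binds fibroblast growth factor and was picked after its values were seen, read 9.57 (8.92 to 9.005). In tumor_9500 Gpt read 7.03 (7.66 to 7.70) and Pagr1a 9.33 (9.03 to 9.04). In tumor_9520 Ncoa6 read 8.69 (8.35 to 8.39), Hoxb6 7.59 (7.19 to 7.24), Slc29a1 7.05 (7.65 to 7.68) and Acvr2a 6.19 (5.38 to 5.52).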

How the results depend on the processing

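No setting gave a gene with an adjusted p under 0.05 in limma. The number of genes lower at an unadjusted p under 0.05, 68, was 184 with no filter on dim genes, 28 with the 60th percentile filter, 111 without tumor_9509 and tumor_9514, 104 with arrays centred and 151 after quantile normalization. Leaving out each tumour in turn gave 46 to 95 lower genes and 156 (without tumor_26) to 406 higher genes. Without chromosome 19 genes, a setting added after seeing the data, 208 were higher and 68 lower. The X chromosome difference of 0.0088 was -0.0045 with the mean over probesets, -0.0023 with no filter, -0.011 with the 60th percentile filter, -0.0031 with arrays centred, -0.015 after quantile normalization and -0.019 in 4-digit tumours only, and -0.012 to 0.024 when each tumour was left out. Of 106 named genes, 100 kept their sign in every setting. Jak1 was -0.043 without tumor_9509 and tumor_9514 and -0.054 after quantile normalization, and ranged from -0.023 (without tumor_9500) to 0.095 (without tumor_9520) when each tumour was left out, with -0.0061 without tumor_9514. Maoa was 0.19 in 4-digit tumours only and ranged from -0.52 (without tumor_9520) to 0.10 (without tumor_26). Stat2 was -0.040 without tumor_9509 and tumor_9514 and ranged from -0.047 (without tumor_9500) to 0.13 (without tumor_9520). Slc40a1 was 0.093 and Ccr7 0.064 in 4-digit tumours only, and Itgb3 was -1.6e-05 without tumor_9509 and tumor_9514. The cause was not tested. Signals near background limit what can be read from Kdm6a in the low tumours and from genes under the detection limit.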
